A study of Homo sapiens with 6 samples.

Results

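Antisense long noncoding RNAs are transcripts from the strand opposite to another gene, most often a protein-coding one. They can start near the promoter of that gene and run away from it, start beyond its 3′ end and run into it, or lie inside it, and single examples are known to act on the partner gene in cis, on chromatin, on splicing or as decoys for microRNAs, while for most no function is known. The genes described here are those whose annotated biotype is antisense and whose level, averaged over all 6 libraries, was at least 2 CPM (a gene's count relative to all counts of its library). Hosts of small nucleolar RNAs were left out by name (SNHG7, SNHG10, SNHG12 and ZFAS1). This gave 266 genes of 5583 with the antisense biotype and of 58735 genes in all. The genes were thus chosen by their measured level, and the rule uses no difference between the library labels. Since the mean is taken over both labels, a gene could still pass through the label where it was high. USP30-AS1, described below, was under 2 CPM in every PTPF library and was kept through STATF. RBM26-AS1 was under 2 CPM in every STATF library and was kept through PTPF. For such genes the limit is not independent of the difference. At the limit, AL928654.1 and AC000068.1 were just inside at 2.02 and 2.01 CPM, and SP2-AS1 and THAP7-AS1 just outside at 1.98 and 1.97 CPM.

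The libraries are polyadenylated RNA of HepaRG, an established human hepatoma line whose cells can differentiate towards hepatocytes and bile duct cells. Every library came from cells kept in 1.8% DMSO to differentiate, given siRNA for 48 h, and loaded for 24 h with 2 fatty acids, oleic at 800 µM and palmitic at 400 µM. By their titles, 3 libraries carry the label PTPF and 3 the label STATF, which the labels do not spell out. The study used siRNAs against the interleukin-6 effector STAT3 and the membrane phosphatase PTPRD, and no library of control siRNA was analysed here.

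Total counts were 33225627 to 40796767 per library. STAT3 stood at 435.5, 436.3 and 456.9 CPM in the libraries labelled PTPF, against 113.7, 131.7 and 113.0 CPM in those labelled STATF. PTPRD was at 10.03, 12.7 and 11.7 CPM in the libraries labelled PTPF and at 11.2, 12.2 and 11.1 CPM in those labelled STATF, so that it did not check the PTPF label, and every direction below is between libraries by label. The hepatocyte marker ALB was at 11100 to 15700 CPM, the biliary markers KRT19 and SOX9 at 70.1 to 128 and 13.8 to 21.5 CPM. Biliary KRT7 was at 0.109 to 0.906 CPM and EPCAM at 0 in every library. Among macrophage or leukocyte markers, PTPRC was at 0 to 0.0272, CD163 at 0.752 to 1.57 and CD14 at 7.64 to 14.7 CPM. Whether replicates come from separate cultures is not given, so p-values reflect only library-to-library spread, possibly technical. In such bulk RNA, fewer cells of a type and less RNA per cell cannot be told apart.

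What the counts hold was read from the table. Of 324 antisense genes whose exon bases all lie in exons of the opposite strand, 323 had no count in any library. Of the 4692 that share under 50% of their exon bases in this way, 1238 (26.4%) had none. Bases shared between the strands thus took almost no reads, as happens when overlapping reads are counted without strand and left unassigned. The values below therefore rest on exon bases that no other gene shares, and reads of unspliced sense RNA over those bases cannot be told apart from the antisense RNA. Of the 266 genes, 69 share no exon base with the opposite strand, 48 share over 25%, and the median is 7.08%.

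Most of the 266 genes were low. Their mean levels, scaled by the trimmed mean of M values (TMM), ran from 2.01 to 99.2 CPM with a median of 4.22. Unscaled, 169 were under 5 CPM and 39 at 10 CPM or more. They had 24 to 4057 counts per library, and together 0.163% to 0.181% of all counts. The most abundant was FGD5-AS1 at 103, 106 and 102 CPM in the PTPF-labelled libraries, against 97.1, 97.3 and 90.8 CPM in the STATF-labelled ones. These groups did not overlap, and its log2 fold change of 0.12 (SE 0.05) did not pass (edgeR adjusted p = 0.119). Others of the most abundant were GABPB1-AS1, AL365181.3, CCDC144NL-AS1, AC018647.2, OTUD6B-AS1 and DHRS4-AS1, at means of 46.4, 45.2, 37.6, 28.6, 27.03 and 25.4 CPM. These 6 did not pass in edgeR, with adjusted p-values from 0.176 (GABPB1-AS1) to 0.839 (AL365181.3). Of the 8 most abundant genes, 1 passed and was higher in PTPF. Of the 39 antisense genes at 10 CPM or more 35.9% passed, and of all genes tested 21.6%. Per kilobase of exon bases that no other gene shares, the highest were RAET1E-AS1 at 20.9 CPM per kilobase, FGD5-AS1 at 20.7 and AC027307.2 at 18.1, followed by AL590666.2, MID1IP1-AS1, AL365181.3, LBX2-AS1 and AL391427.1 at 15.99, 15.7, 15.6, 13.8 and 12.3. The lowest was KCNQ1OT1, the long imprinted transcript inside KCNQ1, at 0.0824. RAET1E-AS1 shares 70.6% of its exon bases with other genes, so its value rests on the remaining bases. It was lower in PTPF, at 5.64, 5.45 and 7.41 CPM, against 9.19, 8.59 and 8.41 CPM in STATF (log2 fold change -0.50, edgeR adjusted p = 0.00222).

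Between the library labels, 22 of the 266 genes were higher and 26 lower in PTPF (edgeR adjusted p under 0.05), or 8.27% and 9.77%, and all 266 passed the filter on low counts. Over all 17844 genes tested, which had no limit of 2 CPM, 10.1% were higher and 11.6% lower. That is 21.6% in all, beside 18.0% of the 266 antisense genes. At 2 CPM or more, 28.4% of 11715 protein-coding genes and 20.9% of 263 lincRNA genes passed. Of all 1121 antisense genes tested, 6.96% passed. By an unadjusted p under 0.05, 67 of the 266 passed, against 32.1% of all genes. Their median log2 fold change was -0.00, and over all genes it was 0.00. The groups did not overlap in 82 antisense genes (30.8%), against 35.7% of all genes. Most of the differences were small, since 33 of the 48 were under 1.5-fold and 4 at least 2-fold. Without STATF replicate 1 the number higher was 11. Scaled by library totals alone, 15 were higher and 30 lower, so that the higher share of calls was 33.3%, against 45.8%. Of the 48 calls, 25 held whichever single library was left out, 10 of them higher and 15 lower.

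**Figure D1:**
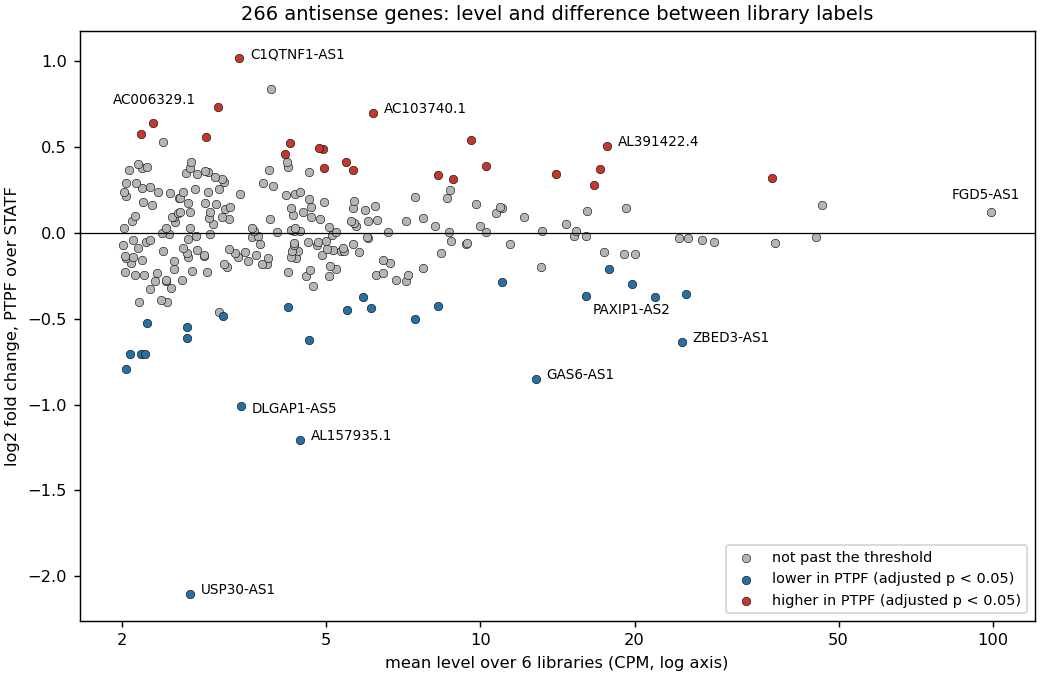
Log2 fold change, PTPF over STATF (vertical axis), against the mean level in CPM on a log axis, for each of the 266 antisense genes. Points are genes, coloured by the edgeR call: 22 higher, 26 lower and 218 not past the threshold, with USP30-AS1 at -2.10 standing lowest and C1QTNF1-AS1 at 1.02 highest.

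The share of genes that passed rose with the level. It was 13.6% of 169 antisense genes at 2 to 5 CPM, 19.0% of 58 at 5 to 10 CPM and 35.9% of 39 at 10 to 1000 CPM. Long intergenic noncoding RNA (lincRNA) genes had 9.42%, 24.3% and 46.0% in the same ranges, and protein-coding genes 17.7%, 18.9% and 31.0%. The median size of the difference was 0.17 on the log2 scale in the 266 genes and 0.13 in all tested genes of at least 2 CPM. By range of level it was 0.20, 0.14 and 0.13 in antisense genes and 0.21, 0.15 and 0.12 in protein-coding genes. In lincRNA genes it was 0.22, 0.18 and 0.21.

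**Figure D2:**
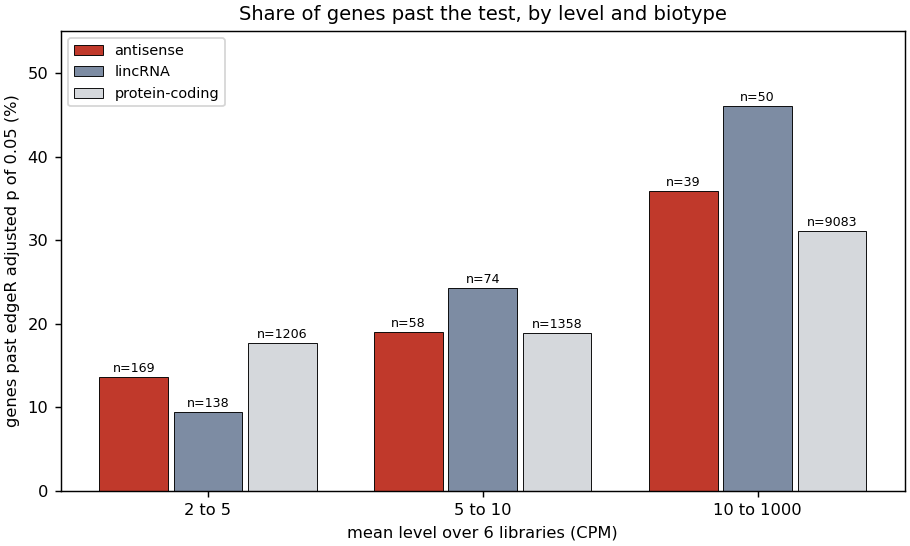
Bars give the percentage of genes past the edgeR threshold, for antisense, lincRNA and protein-coding genes in 3 ranges of mean CPM, with the number of genes above each bar. Among antisense genes the share was 13.6%, 19.0% and 35.9% from the lowest to the highest range.

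The largest difference was in USP30-AS1, which lies inside USP30, the gene of a mitochondrial deubiquitinase, on chromosome 12 from 109052350 to 109053952 of GRCh38, minus strand. It stood at 1.06, 1.25 and 0.735 CPM in the PTPF-labelled libraries, against 4.85, 3.50 and 4.89 CPM in the STATF-labelled ones. All 3 PTPF values were below all 3 STATF values. USP30-AS1 was 4.30-fold lower in PTPF, with -2.10 on the log2 scale (SE 0.20, edgeR adjusted p = 7.83e-09), and the two-sided exact permutation p was 0.1, the smallest that 3 against 3 libraries allow. USP30 itself had 18.6, 17.9 and 16.04 CPM in PTPF against 19.5, 17.2 and 15.8 CPM in STATF, a log2 fold change of 0.00 with a 95% interval from -0.17 to 0.17. USP30-AS1 shares 35.5% of its exon bases with the opposite strand. Its GENCODE 29 transcript of 656 bases has 2 exons, and the stretch printed here, bases 81 to 267 (chr12:109053686-109053872, minus strand), is the first that lies outside USP30 exons and can therefore take reads:
USP30-AS1 bases 81 to 267: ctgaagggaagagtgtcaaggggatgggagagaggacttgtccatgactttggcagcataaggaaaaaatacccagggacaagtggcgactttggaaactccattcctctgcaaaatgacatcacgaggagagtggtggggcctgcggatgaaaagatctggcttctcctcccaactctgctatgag

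Other falls of 1.5-fold or more lay at loci of varied function. AL157935.1 spans DPM2, a subunit of the dolichol-phosphate mannose synthase, and had 2.15, 3.21 and 2.66 CPM in PTPF against 6.26, 6.24 and 6.14 CPM in STATF (log2 fold change -1.21, SE 0.15, edgeR adjusted p = 4.92e-07). Its groups lay far apart, and the 3 STATF libraries differed little from each other. DLGAP1-AS5 had 2.09, 2.40 and 2.30 CPM in PTPF against 4.87, 4.56 and 4.24 CPM in STATF (log2 fold change -1.01, edgeR adjusted p = 1.2e-05), while DLGAP1, the neuronal scaffold gene that contains it, was at 0.0551 CPM and was not tested. A second transcript inside DLGAP1, DLGAP1-AS1, named after its value was seen, was lower, at -0.48 (edgeR adjusted p = 0.0385), a call that ended without PTPF replicate 1 or any single STATF library. GAS6-AS1 had 6.94, 11.8 and 8.69 CPM in PTPF against 17.05, 16.9 and 15.7 CPM in STATF (log2 fold change -0.85, edgeR adjusted p = 0.00101), and its partner GAS6, a ligand of the TAM receptor kinases, had -0.03 with a 95% interval from -0.19 to 0.12.

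U62317.2, which lies inside SCO2, a cytochrome c oxidase assembly factor, was lower, at -0.79, and 58.4% of its exon bases are shared. SCO2 was lower as well, by -1.50. AC007666.1 lies inside SLC25A18, a mitochondrial glutamate carrier. It had 2.03, 1.66 and 1.38 CPM in PTPF against 2.58, 2.69 and 2.99 CPM in STATF, and SLC25A18 had 50.5, 47.0 and 51.7 CPM in PTPF against 95.3, 93.4 and 99.6 CPM in STATF. Both were lower in PTPF, by -0.70 and -0.95. AC106881.1 and AC023157.3, which start near the starts of the netrin receptor gene UNC5C and of AMN1, both had log2 fold changes of -0.71, and the second call ended without STATF replicate 1.

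HNF4A-AS1, inside the gene of the hepatocyte nuclear receptor HNF4A, had 1.97, 2.01 and 2.36 CPM in PTPF against 3.38, 2.76 and 3.58 CPM in STATF. All PTPF values were below all STATF values, and the log2 fold change was -0.61 (SE 0.17, edgeR adjusted p = 0.00998), a call that ended without STATF replicate 3. HNF4A had 135, 132 and 146 CPM in PTPF against 153, 154 and 148 CPM in STATF, a log2 fold change of -0.14 (edgeR adjusted p = 0.0778). TNFRSF14-AS1, at the gene of the lymphocyte receptor TNFRSF14, and AC119427.1, at the anchoring filament gene LAD1, were lower, at -0.55 and -0.53, with each partner lower, at -0.56 and -0.49. Both of these antisense calls ended when any of 4 single libraries was left out.

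The largest rise was in C1QTNF1-AS1, on chromosome 17 from 79019209 to 79027655, minus strand, which shares no exon base with another gene. It stood at 4.82, 4.08 and 4.71 CPM in PTPF against 2.21, 2.21 and 2.30 CPM in STATF. The groups lay far apart, and it was 2.02-fold higher, with 1.02 on the log2 scale (SE 0.15, edgeR adjusted p = 1.11e-05). Its partner C1QTNF1, which encodes a secreted protein of the adiponectin-like CTRP family, had 740, 683 and 739 CPM in PTPF against 431, 442 and 442 CPM in STATF, higher by 0.72 (edgeR adjusted p = 2.46e-10). AC006329.1, which has no opposite-strand overlap, had 3.52, 4.30 and 3.70 CPM in PTPF against 2.02, 2.59 and 2.32 CPM in STATF (log2 fold change 0.73, edgeR adjusted p = 0.00132). AC103740.1, whose 3′ part overlaps the talin gene TLN2, had 7.31, 7.79 and 7.87 CPM in PTPF against 4.74, 4.87 and 4.54 CPM in STATF (log2 fold change 0.70, edgeR adjusted p = 4.33e-05).

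AC093157.1 and AL391422.4, which start near DPH5, of the diphthamide pathway, and PXDC1, were higher by 0.54 and 0.51 and kept their calls whichever library was left out. AL391422.4 had 20.3, 20.1 and 21.7 CPM in PTPF against 14.9, 14.6 and 14.3 CPM in STATF, and shares 27.2% of its exon bases. ZNF436-AS1, beside a zinc finger gene, was higher by 0.52, with 4.85, 5.12 and 5.08 CPM in PTPF against 3.20, 3.74 and 3.52 CPM in STATF. RBM26-AS1 (0.64), AC027117.2 (0.58), AC009403.1 (0.49), TMEM147-AS1 (0.49), HMGN3-AS1 (0.46) and AC024896.1 (0.41) were also higher on the log2 scale, and each of these 6 calls ended without STATF replicate 1. For 5 of them it also ended without at least 1 other library, and for TMEM147-AS1 it did not.

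**Figure D3:**
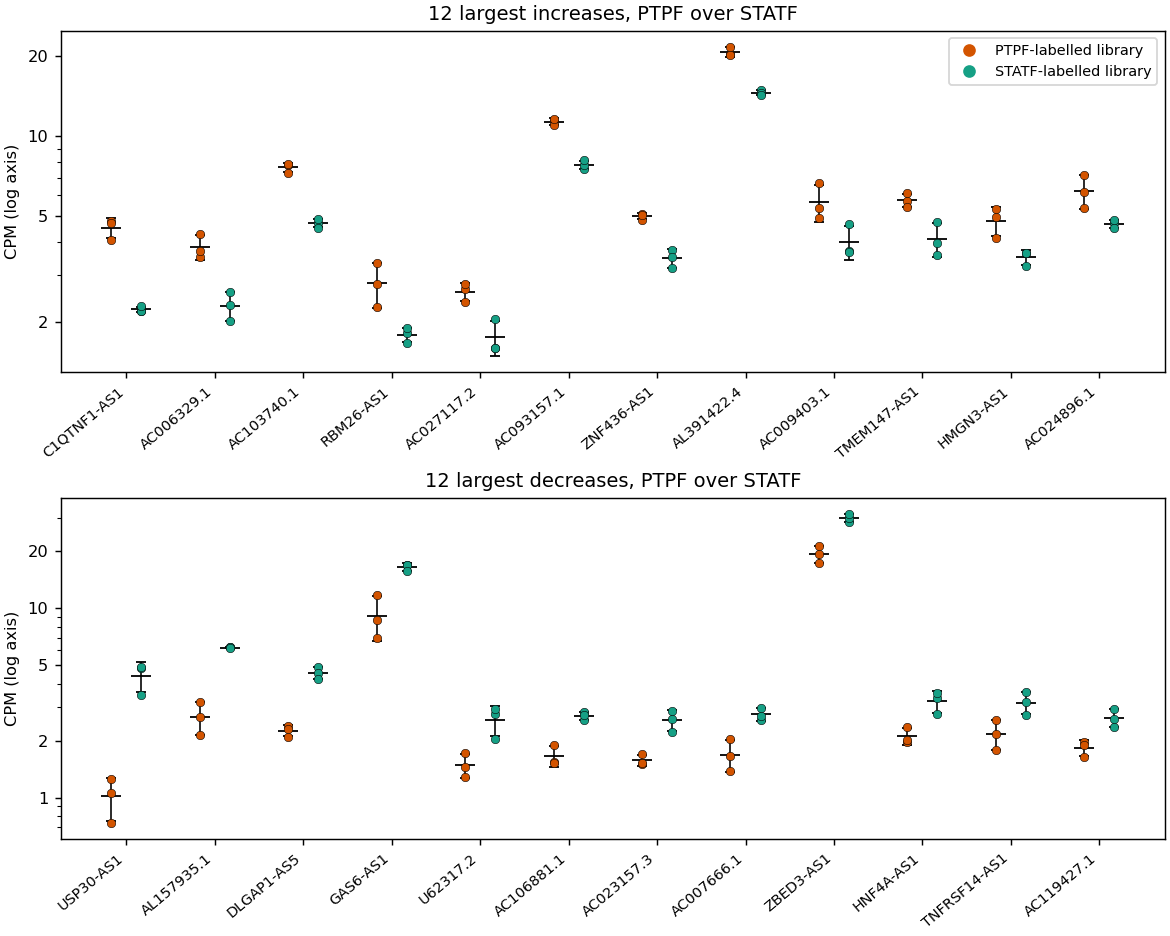
CPM of each library on a log axis for the 12 antisense genes with the largest increases (top) and decreases (bottom), PTPF left and STATF right of each gene, with lines at the mean and bars of 1 SD (n = 3). The PTPF and STATF points do not overlap for any gene shown, which the choice of these genes required, and USP30-AS1 shows the widest gap.

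Of the 266 genes, 232 overlap an opposite-strand gene, here called the sense gene, and 34 do not. By their spans, 98 pairs were head to head, with overlapping 5′ ends, 60 tail to tail, with overlapping 3′ ends, 47 had the antisense gene inside the sense gene and 27 the reverse. In 207 pairs, with 204 different sense genes, the sense gene was tested. Per kilobase of unshared exon, the antisense gene stood at a median of 0.573 times its sense gene, above it in 69 pairs and under 0.1 times in 38. This ratio was 0.356 in head to head pairs and 1.38 where the antisense gene lies inside the sense gene. As examples, FGD5-AS1 is 20.7 CPM per kilobase where FGD5 is 0.0338, and STEAP3-AS1, named after its value was seen, is 1.08 where the iron reductase gene STEAP3 is 121.

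Of the 204 sense genes, 16 were higher and 20 lower in PTPF, or 17.6%, against 21.6% of all genes. Scaled by library totals alone, 10 were higher and 37 lower. Without STATF replicate 1 and STATF replicate 3, the number lower was 10 and 13. In 12 pairs both genes passed in the same direction (5 higher, 7 lower), in 2 pairs in opposite directions, in 24 the antisense gene alone passed, in 22 the sense gene alone and in 147 neither. Signs were the same in 123 pairs (59.4%). Across the 207 pairs, Pearson's r between the 2 log2 fold changes was 0.31 and Spearman's rho 0.26, as a description, since both genes of a pair are measured in the same libraries at 1 locus.

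Values are given by the arrangement of the pair. Pearson's r was 0.58 and Spearman's rho 0.49 in 90 head to head pairs, 0.02 and 0.00 in 56 tail to tail pairs, 0.21 and 0.19 in 42 pairs with the antisense gene inside, and 0.12 and 0.15 in 19 with the sense gene inside. The difference between arrangements was not tested. Of the 12 pairs that moved together, 7 were head to head. They were those of ZBED3-AS1, RBM26-AS1, ZNF436-AS1, C1QTNF1-AS1, TNFRSF14-AS1, AC119427.1 and MMP25-AS1, the last named after its value was seen. The call of ZNF436 (0.25, edgeR adjusted p = 0.0237) ended without any single library except PTPF replicate 2, with library totals alone and with no filter. By annotated starts, 150 antisense genes begin within 1000 bases of an opposite-strand start, at a median distance of 282.5 bases. Of these 150, 24 passed (16%), against 24 of the other 116 (20.7%) and 21.6% of all genes tested. In the 143 of the 150 whose neighbour was tested, r was 0.43 and rho 0.36. Of these pairs, 6 passed in the same direction and 0 in opposite directions. Across the 143 tested neighbours this included AC027117.2 with MTUS1, a microtubule-associated protein gene that was higher by 0.78, and ADORA2A-AS1 with UPB1, named after their values were seen.

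**Figure D4:**
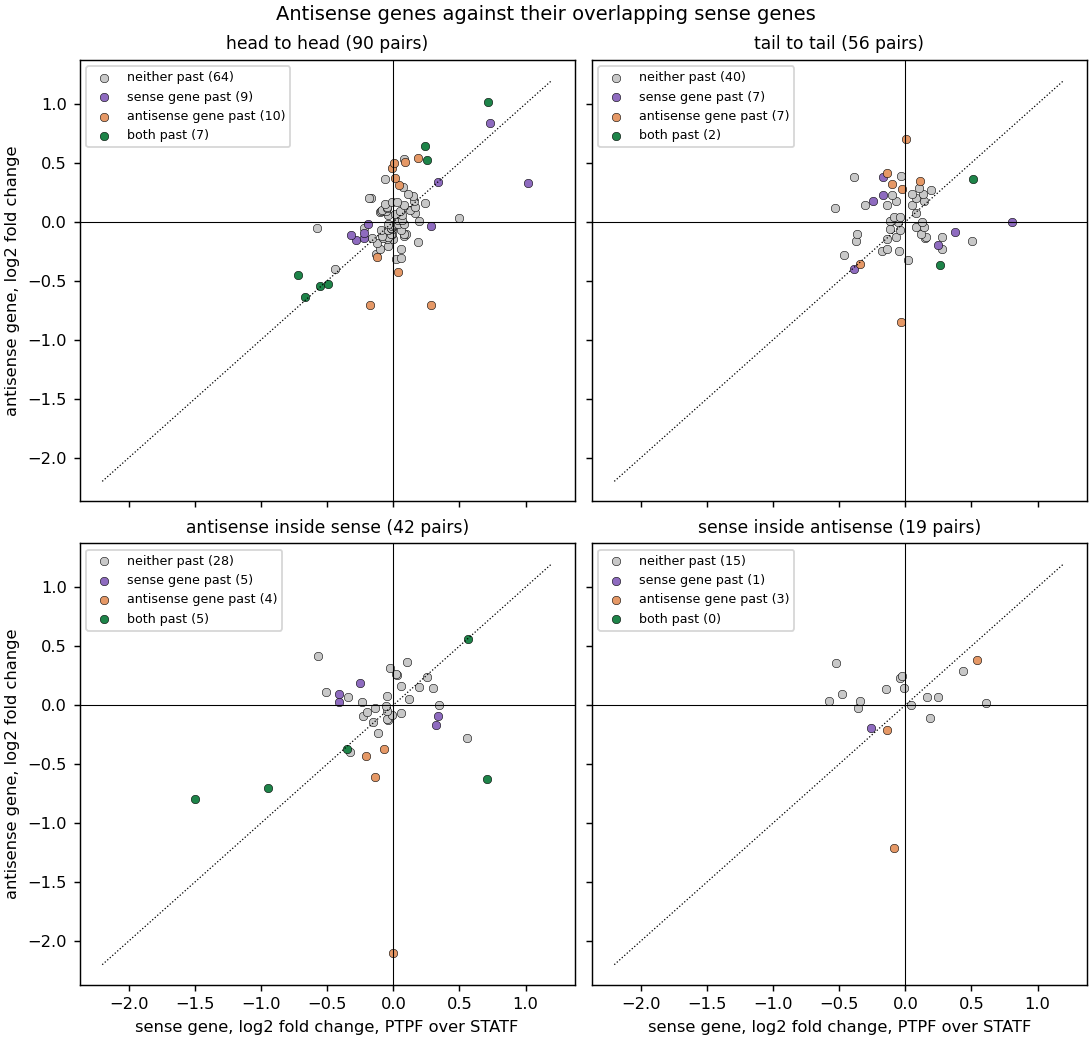
Log2 fold change of the antisense gene (vertical) against that of its sense gene (horizontal), both PTPF over STATF, in 4 panels by the arrangement of the pair. Points are pairs, coloured by which gene passed edgeR, and the dotted line marks equal change. In the head to head panel the 7 pairs with both genes past lie in the lower left and upper right, and the tail to tail panel has 2 such pairs.

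Of the antisense genes that moved with their sense gene, the most abundant was ZBED3-AS1, beside ZBED3, which encodes a zinc finger protein that binds axin. ZBED3-AS1 had 17.3, 21.4 and 19.5 CPM in PTPF against 28.6, 30.1 and 31.7 CPM in STATF, and ZBED3 had 86.8, 97.4 and 107 CPM in PTPF against 155, 157 and 149 CPM in STATF. All PTPF values of both genes were below all STATF values. The log2 fold changes were -0.63 (SE 0.08) and -0.66 (edgeR adjusted p = 3.79e-07 and 5.9e-09), and their difference was 0.03 with a 95% interval from -0.14 to 0.20. RBM26-AS1 had 2.27, 3.35 and 2.79 CPM in PTPF against 1.68, 1.82 and 1.90 CPM in STATF, and RBM26, an RNA-binding protein gene, was higher by 0.24. Windows of 300 bases around RefSeq starts (250 before, 50 after) are shown for pairs chosen for moving together with starts within 1000 bases. The closeness of the starts is thus not a result. For each pair 1 window is printed, with LAD1 standing for its pair. By GENCODE 29 the starts lie 635 (ZBED3), 168 (RBM26), 445 (ZNF436) and 282 (LAD1) bases apart. The RefSeq starts of the ZBED3, RBM26 and ZNF436 pairs lie at other distances. The windows and their CG counts therefore need not describe the GENCODE 29 starts. The windows are from RefSeq, GRCh38.p14, with CG dinucleotides in capitals:
ZBED3-AS1, chr5:77086465-77086764, plus strand: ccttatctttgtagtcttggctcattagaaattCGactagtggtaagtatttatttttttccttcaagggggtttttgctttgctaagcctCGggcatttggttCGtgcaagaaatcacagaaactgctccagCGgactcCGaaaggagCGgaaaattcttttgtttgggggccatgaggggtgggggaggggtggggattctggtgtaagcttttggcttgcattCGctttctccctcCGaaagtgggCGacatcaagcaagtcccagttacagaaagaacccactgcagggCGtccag
RBM26-AS1, chr13:79406059-79406358, plus strand: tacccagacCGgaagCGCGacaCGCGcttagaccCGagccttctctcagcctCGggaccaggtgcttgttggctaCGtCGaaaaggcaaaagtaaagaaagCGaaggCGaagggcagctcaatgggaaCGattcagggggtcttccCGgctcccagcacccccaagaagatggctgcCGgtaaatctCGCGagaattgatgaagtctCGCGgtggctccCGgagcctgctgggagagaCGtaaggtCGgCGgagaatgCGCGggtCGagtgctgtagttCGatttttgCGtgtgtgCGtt
ZNF436-AS1, chr1:23368721-23369020, plus strand: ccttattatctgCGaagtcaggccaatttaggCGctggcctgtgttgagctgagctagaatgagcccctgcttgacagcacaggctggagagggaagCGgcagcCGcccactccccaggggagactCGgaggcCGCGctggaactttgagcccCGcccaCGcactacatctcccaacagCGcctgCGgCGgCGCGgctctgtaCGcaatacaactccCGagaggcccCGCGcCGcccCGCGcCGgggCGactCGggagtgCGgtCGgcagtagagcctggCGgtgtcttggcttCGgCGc
LAD1, chr1:201399275-201399574, minus strand: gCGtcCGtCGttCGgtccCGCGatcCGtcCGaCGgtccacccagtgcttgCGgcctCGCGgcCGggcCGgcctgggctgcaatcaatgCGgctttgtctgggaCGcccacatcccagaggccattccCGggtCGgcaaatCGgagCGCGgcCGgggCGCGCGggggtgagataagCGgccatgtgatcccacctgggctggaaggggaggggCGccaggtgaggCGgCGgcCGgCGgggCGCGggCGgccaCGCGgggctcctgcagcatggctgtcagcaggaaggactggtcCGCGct

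These windows hold 10, 28, 29 and 38 CG dinucleotides, from the ZBED3-AS1 window to that of LAD1. The partner windows, not printed, held 18 (ZBED3), 22 (RBM26) and 4 (ZNF436), and no window was matched for AC119427.1. RefSeq promoter windows were matched by symbol for 103 of the 266 genes. Their median ratio of observed to expected CG was 0.803, against 0.579 in all 35116 windows. All windows include those of genes at any level, while the 103 belong to genes of at least 2 CPM. Windows of other genes at such levels were not compared. The median ratio was 0.880 in the 62 with an opposite-strand start within 1000 bases and 0.513 in the other 41. The core of the interferon-stimulated response element, GAAA, any 2 bases and GAAA again, was found on either strand in 3 of the 103 windows (2.91%) and in 3.57% of all windows. The STAT site letters TTCNNNGAA were in 5 (4.85%) and in 7.66% of all. Of the windows of genes that passed, 1 of 12 lower ones held the first motif and 2 the second, and 0 of 10 higher ones held either. No sense gene or near neighbour of the 266 was on the lists of 72 interferon-stimulated or 30 acute-phase genes used to tag them.

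The ratio of antisense to sense RNA was tested directly, as the difference of the 2 log2 CPM values within each library. Over all 891 pairs tested in the table, 20 (2.24%) differed between the labels (limma adjusted p under 0.05). Among the 207 pairs of the genes described here, 14 (6.76%) did, 6 with a higher and 8 with a lower ratio in PTPF. The 891 pairs include these 207, and the antisense genes of the others were mostly under 2 CPM. Whether level accounts for the larger share was not tested. Without STATF replicate 2, 9 pairs of the genes described here differed. A model of both genes' counts in edgeR with the interaction of gene and label called 3, USP30-AS1, AL157935.1 and AC083855.2, all among the 14, and all 14 had the same direction in it.

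The ratio was lowest against STATF at USP30, at -2.08 on the log2 scale (95% interval -2.50 to -1.65, limma adjusted p = 5.87e-15). At HRH1, the histamine H1 receptor gene, the partners moved in opposite directions. AC083855.2, inside HRH1 and sharing no exon base with another gene, had 3.03, 5.01 and 2.88 CPM in PTPF against 4.71, 6.43 and 5.77 CPM in STATF, and HRH1 had 19.4, 18.4 and 18.9 CPM in PTPF against 11.9, 11.7 and 11.1 CPM in STATF. The groups overlapped for the antisense gene and lay apart for HRH1. The log2 fold changes were -0.62 and 0.71, and their difference on the scale of the ratio was -1.36 (95% interval -1.69 to -1.03, limma adjusted p = 5.06e-11). The edgeR call of AC083855.2 itself ended without PTPF replicate 1 or 3 or STATF replicate 2 or 3.

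The other pair with opposite calls was PAXIP1-AS2 with PAXIP1, a DNA damage response gene. PAXIP1-AS2 had 12.4, 15.9 and 13.8 CPM in PTPF against 17.8, 18.1 and 18.4 CPM in STATF, while PAXIP1 had 17.8, 19.3 and 21.4 CPM in PTPF against 16.3, 17.01 and 15.4 CPM in STATF. Neither gene's groups overlapped, and the log2 fold changes were -0.37 and 0.26. The edgeR call of PAXIP1 (adjusted p = 0.0184) ended without PTPF replicate 3 or STATF replicate 1 or 3, and with scaling by library totals alone. The ratio was lower, at -0.63 (95% interval -0.83 to -0.44, limma adjusted p = 3.58e-07). At NOP14, a ribosome biogenesis gene that was higher by 0.25, NOP14-AS1 did not pass itself (-0.20, edgeR adjusted p = 0.0852), and the ratio was lower, at -0.45. The call of NOP14 ended without STATF replicate 1. At DPM2 and AMN1 the ratio was lower, at -1.13 and -0.97, and at TLN2, PXDC1 and TM7SF3 it was higher by 0.69, 0.42 and 0.53.

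A further 4 of the 14, named after their values were seen, were those of RASSF8-AS1 (-0.46), AC090578.1 with the membrane protease gene MMP16 (-0.70), NCK1-DT with SLC35G2 (0.74) and AL355488.1 with SLC16A4 (1.01), each value a difference of the ratio. MMP16 had 16.04, 18.4 and 17.9 CPM in PTPF against 7.75, 9.33 and 8.70 CPM in STATF, while AC090578.1 had 3.001, 3.38 and 3.73 CPM in PTPF against 2.88, 2.35 and 2.86 CPM in STATF and did not pass (log2 fold change 0.32, edgeR adjusted p = 0.164). In pairs such as GAS6-AS1 with GAS6 the antisense gene passed and the sense gene did not, yet the test of the ratio gave a limma adjusted p of 0.203, so a difference between the 2 genes was not shown there.

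**Figure D5:**
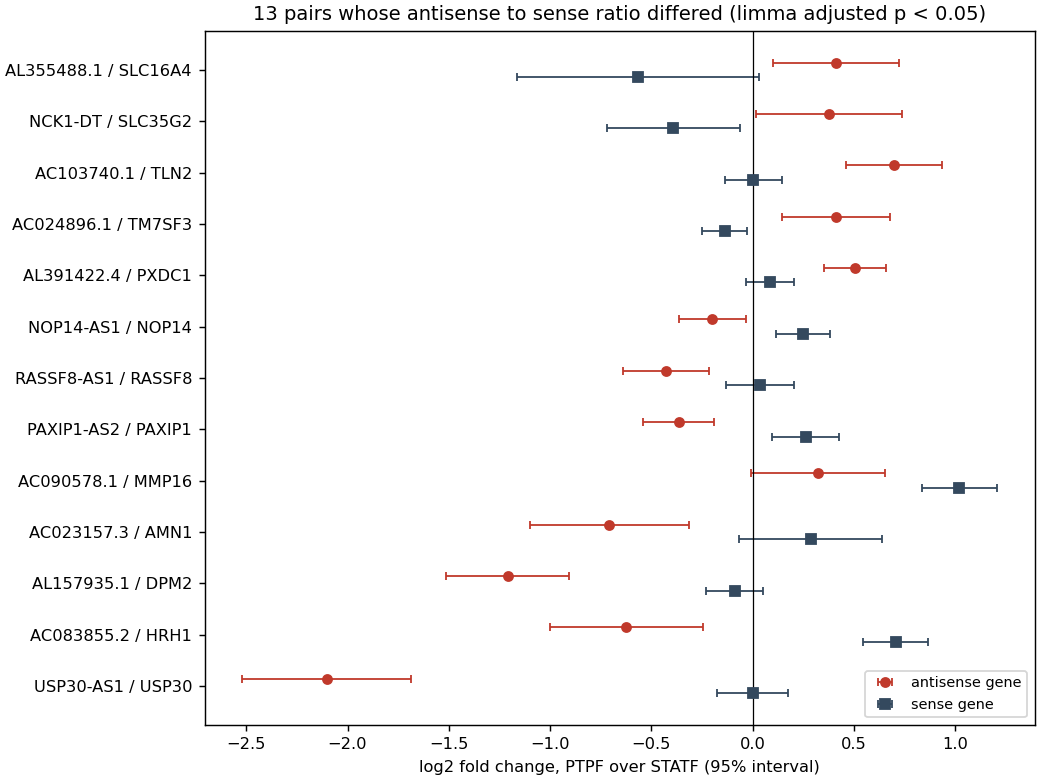
Log2 fold change, PTPF over STATF, of the antisense gene (circles) and its sense gene (squares) with 95% intervals, for 13 of the 14 pairs whose ratio differed. The pairs are ordered by the difference, from AL355488.1 with SLC16A4 at the top (1.01) to USP30-AS1 with USP30 at the bottom (-2.08).

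Of 14 broadly expressed antisense RNAs among the 266, from a list of 30, 0 were higher and 1 was lower in edgeR, where 10.1% of all genes tested were higher and 11.6% lower. That gene was NUTM2A-AS1, at 16.1, 17.2 and 16.4 CPM in PTPF against 17.8, 20.01 and 19.6 CPM in STATF. Its log2 fold change of -0.21 (edgeR adjusted p = 0.0488) lost its call without any PTPF library or without STATF replicate 2 or 3, and near-identical NUTM2 genes make its counts uncertain. THUMPD3-AS1, CTBP1-DT, HCG18, MCM3AP-AS1, SBF2-AS1, SLC25A25-AS1, KMT2E-AS1, ARHGAP5-AS1, PRKAR2A-AS1, NUTM2B-AS1, DHRS4-AS1 and FGD5-AS1 lay between -0.15 (SBF2-AS1) and 0.22 (MCM3AP-AS1) on the log2 scale and did not pass. Of the imprinted or deletion-region transcripts, KCNQ1OT1 had 7.40, 8.82 and 7.77 CPM in PTPF against 6.90, 7.05 and 6.81 CPM in STATF (log2 fold change 0.21, edgeR adjusted p = 0.179) and DLEU2 had a log2 fold change of 0.23 (edgeR adjusted p = 0.396).

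Among 4 transcripts from a list headed liver transcription factor and plasma protein loci, 0 were higher and HNF4A-AS1 was lower. CEBPA-DT, which starts 293 bases from the start of the liver transcription factor gene CEBPA, had 5.21, 4.44 and 4.47 CPM in PTPF against 3.84, 4.37 and 4.75 CPM in STATF. Those groups overlapped, with at 0.12 on the log2 scale (edgeR adjusted p = 0.594), while CEBPA had -0.21 (edgeR adjusted p = 0.0293). PXN-AS1 and TMPO-AS1, on that list although PXN and TMPO are neither kind of gene, had 0.38 and 0.17 and did not pass. The 1 gene of the interferon and immune list, TNFRSF14-AS1, was lower as given above. None of the 3 genes of the hypoxia, growth and stress list passed in edgeR, DESeq2 or limma-voom (ZEB1-AS1 -0.02, BDNF-AS -0.01, ATP6V0E2-AS1 -0.23), and none had an unadjusted p under 0.05, nor did HOXA-AS2 of the homeobox list (-0.09). BDNF-AS stood at 3.03, 2.89 and 2.97 CPM in PTPF against 3.14, 2.97 and 2.80 CPM in STATF, while the growth factor gene BDNF had 0.81 (edgeR adjusted p = 0.0425), a call that ended without PTPF replicate 2 or 3 or STATF replicate 2 or 3 and in DESeq2, and the test of their ratio gave a limma adjusted p of 0.147.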

How the data were processed

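Polyadenylated RNA of 6 HepaRG libraries was sequenced. CASAVA 1.8, HISAT2 2.0.5 and featureCounts 1.5.0-p3 are named, with GRCh38, per the submitters' processing notes. How strand and multi-mapped reads were treated is not given. For each gene the deposited values are whole read counts, unnormalized. The deposited gene length (an other unit, in bases) equalled the exon union of GENCODE 29 for all 58735 genes, so exon overlaps were taken from that release. The antisense genes and the lists were chosen with earlier results of these data known.

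Counts were filtered (filterByExpr, leaving 17844 genes), scaled by TMM and tested by quasi-likelihood in edgeR 4.0.16 (robust, group only; R 4.3.3), Benjamini-Hochberg adjusted, threshold 0.05. CPM are TMM-scaled, and log2 fold changes are PTPF over STATF. SE is the log2 fold change over the root of its F. The sense gene of each was the opposite-strand gene overlapping its span, protein-coding first, then with the most shared bases. Ratios were log2 CPM differences (prior count 2) tested with limma 3.58.1 over 891 pairs, trended on the lower gene.

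Genes named are the 12 largest changes per direction past the threshold without overlap of groups, the 8 most abundant by CPM and per kilobase, opposite calls, the 8 smallest ratio p-values and 6 lists; promoters shown are of head-near pairs moving together. Some genes that the rule names are not reported here. Steps were tested on simulated data. Python 3.11.15, pandas 2.3.3 and DESeq2 1.42.0 were also used. Replicate libraries differed beyond counting noise (chi-square over its degrees of freedom, 4.01 to 10.9). A count of 0 allows up to 3 counts (0.0735 to 0.0903 CPM), for counting error only, since no molecular identifiers are named and reads may repeat a molecule.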

Additional observations from a re-analysis of the deposited data

How the results depend on the processing

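Counts of antisense genes higher and lower (22 and 26) stayed within 1.5 times under RLE or totals-only scaling, no filter, at least 50 counts, DESeq2, limma-voom, no mitochondrial genes, a limit of 1 CPM and leaving out genes that share over 25% of exon bases. An adjusted p of 0.01 left 12 and 17, and a limit of 5 CPM, with fewer genes, 12 and 13. Leaving out single libraries gave 11 to 22 higher and 18 to 26 lower. Sense genes (16 and 20) were 10 and 37 with library totals only, which moved the median of all genes to -0.06, and 10 and 11 at an adjusted p of 0.01; single libraries left out gave 12 to 18 higher and 10 to 19 lower. The 14 ratio calls were 24 with at least 50 counts in 3 libraries (13 shared, fewer pairs tested), 3 in the edgeR interaction model and 9 to 17 with single libraries left out; the cause was not tested. Over the alternatives for named genes and their sense genes, 1607 values kept their side of the threshold, 87 lost a call, 24 gained one and 0 calls reversed. Samples share only replicate numbers: deviations of same-numbered libraries correlated at 0.0347, 0.0578 and 0.000769, and not every library correlated best with its own number. With the replicate block, 26 antisense genes were higher and 27 lower, 17 and 25 sense genes, and 15 ratios differed. Depth limits the lowest genes most: 24 to 4057 counts stood behind a value.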

Other observations

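AC072022.2, which overlaps the start of the transcriptional repressor gene BCL6, had 2.85, 5.88 and 6.30 CPM in the PTPF-labelled libraries, against 2.32, 3.26 and 2.83 CPM in the STATF-labelled ones. Its groups overlapped, since the first PTPF library was low, and its log2 fold change of 0.84 did not pass (edgeR adjusted p = 0.0585). BCL6 had 140, 166 and 169 CPM in PTPF against 89.7, 101 and 95.8 CPM in STATF, higher by 0.73 (edgeR adjusted p = 5.18e-09). AL157829.1, inside the neuronal gene ASTN2, had 18.0, 19.4 and 19.9 CPM in PTPF against 24.6, 25.5 and 24.2 CPM in STATF (log2 fold change -0.37, edgeR adjusted p = 0.000246), and ASTN2 had -0.07. AL391427.1, inside the steroid-reducing enzyme gene AKR1C2, had 4.97, 5.88 and 4.59 CPM in PTPF against 6.34, 6.67 and 7.07 CPM in STATF. Its log2 fold change was -0.38, beside -0.35 of AKR1C2, whose near-identical relatives make its counts uncertain, and its call ended without PTPF replicate 1 or 3 or STATF replicate 2 or 3. These genes were chosen after their values were seen, except AL391427.1.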
